A study of Mus musculus with 18 samples.

Results

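Cemip and 6 further genes of hyaluronan metabolism, Has1, Has2, Has3, Hyal1, Hyal2 and Cd44, are described here in lung fibroblasts that entered a collagen gel and in those that did not. The genes were taken by symbol from the array annotation, and each is given by the brightest probe set that carries its symbol and no other. Such a probe set was found for 6 of the 7 genes, out of 19938 genes on the array, and the probe sets of Hyal1 also carry a second symbol. The group was formed because the signal of Cemip was much lower in invading than in non-invading fibroblasts at 96 h. The values of Cemip at 96 h are therefore a description without a test, and so is every comparison of Cemip that uses the 96 h samples. The signal of Cemip at 72 h comes from other samples, and the remaining members were taken by name, so these were tested. The members and the gene lists were chosen with earlier results of these data known, so these tests are not independent of the data.

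All samples were wild type MLg 2908 cells, a fibroblast line from the lung of a newborn ddY mouse, a single line whose sex is not determined. Cells were seeded on top of a collagen gel in medium with serum, and RNA was taken from the cells inside the gel (invading) and from those left on it (non-invading). The arrays were Affymetrix Mouse Gene 1.0 ST, with 5 samples of each fraction at 96 h and 4 of each at 72 h, described as biological replicates. The labels of all 18 samples name a TGFB1 treatment beside the invasion assay, their titles name none and the study marks the array samples as not treated, so whether TGFB1 was present is not settled here. It would apply to both fractions.

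Hyaluronan is a long unbranched sugar polymer of the extracellular matrix. The synthases HAS1, HAS2 and HAS3 make it at the plasma membrane from UDP-sugars and push it out of the cell, where it holds water and forms a coat that cells move through. It is cut by CEMIP, shown in human skin fibroblasts to bind and depolymerise hyaluronan, and at the cell surface by the membrane-anchored HYAL2. Fragments are taken up and broken down to single sugars in lysosomes by HYAL1 and exoglycosidases, and CD44 is the main surface receptor.

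The deposited values are log2 signals, and the median of a sample lay between 6.46 and 6.65. The mean of 10 fibroblast markers ranged from 11.8 to 12.0 over the samples, with Thy1 the marker below the array median in every group. Of the 5 endothelial markers all lay below the array median in every group, as did 6 of 7 epithelial markers (all but the keratin Krt8) and 6 or 7 of 7 leukocyte markers. Of the 3 mesothelial markers Msln lay above it (group means from 9.82 to 10.56), and of the 3 smooth muscle markers Acta2 (12.76 to 13.13), an actin that myofibroblasts also express. Where RNA of a gene is lower in a fraction, fewer cells that express it and less RNA per cell cannot be told apart in such bulk samples. A gene is called changed at an adjusted p under 0.10 in limma, with Benjamini-Hochberg adjustment over all 35556 probe sets. Many genes passed this threshold, so the share of all genes called is given beside each count of members.

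Cemip RNA was far lower in invading than in non-invading fibroblasts at 96 h, and it was also lower at 72 h. At 96 h the signals of Cemip in invading fibroblasts were 9.63, 8.90, 9.30, 9.20 and 9.29, against 11.47, 11.51, 11.35, 11.05 and 11.28 in non-invading fibroblasts. The highest invading sample stood well below the lowest non-invading one, and 18.2% of all genes had no overlap at 96 h. The means of Cemip were 9.26 ± 0.26 in invading and 11.33 ± 0.18 in non-invading fibroblasts (SD, n = 5 each), a log2 ratio of -2.07 (95% interval -2.35 to -1.79) or 0.239 of the non-invading signal. Among 19938 genes this was the lowest ratio at 96 h, which is the reason Cemip was chosen and is not a finding of its own. Without any single 96 h sample, or with another scaling, filter or fit, the log2 ratio of Cemip at 96 h lay between -2.16 and -1.95. This range and the interval come from the values that chose Cemip, so they describe the ratio and add no support to it.

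The 72 h samples are not part of the 96 h ratio for which the group was formed. They gave Cemip signals of 9.48, 9.50, 9.30 and 9.32 in invading fibroblasts, against 10.53, 10.69, 10.78 and 11.13 in non-invading fibroblasts. The fractions did not overlap, and the 4 invading samples lay close together while the non-invading ones were spread more widely. The means of Cemip were 9.40 ± 0.11 in invading and 10.78 ± 0.25 in non-invading fibroblasts (SD, n = 4 each). The log2 ratio of -1.38 (SE 0.12, 95% interval -1.66 to -1.11) corresponds to 0.383 of the non-invading signal, with an adjusted p of 0.000415 in limma. It was the 16th lowest of 19938 genes at 72 h. The ratio stayed between -1.47 and -1.27 under all alternatives, with an adjusted p of at most 0.0036.

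**Figure D1:**
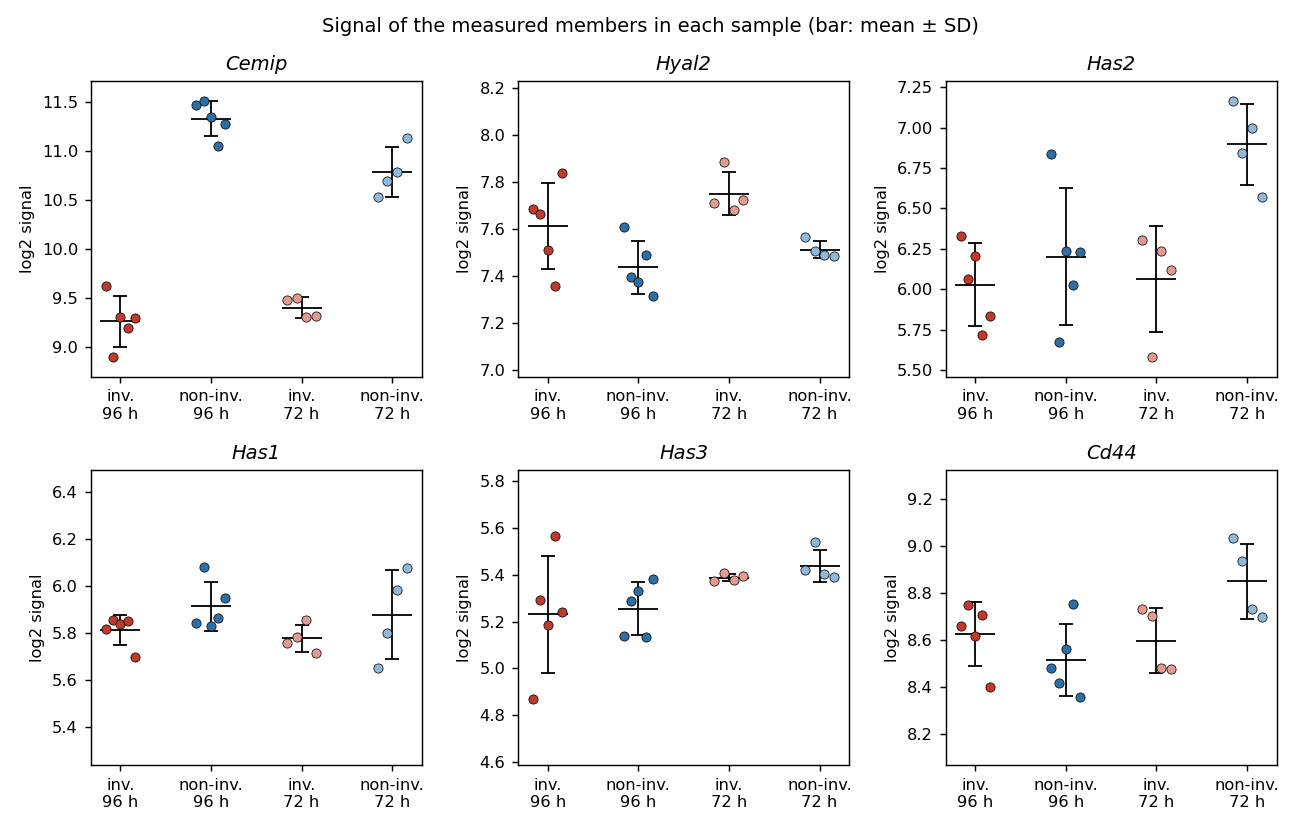
Log2 signal (y axis, a separate range per panel) of the 6 measured members in each sample of the 4 groups (x axis), with dots for samples and bars for the mean ± SD (n = 5 each at 96 h, n = 4 each at 72 h). Cemip separates the fractions at both times, Has2 and Hyal2 separate them at 72 h, and the fractions of Has1, Has3 and Cd44 overlap at both times.

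The values of Cemip at 96 h against 72 h are likewise given without a test. In invading fibroblasts the mean of Cemip at 96 h was 0.14 below that at 72 h on the log2 scale (-0.14), with overlapping samples. In non-invading fibroblasts it was 0.55 above that at 72 h, or 1.46-fold, although the lowest 96 h sample (11.05) lay below the highest 72 h sample (11.13). The log2 ratio of the fractions was thus 0.68 lower at 96 h than at 72 h (-0.68), the 10th lowest such difference among 19938 genes. The 96 h ratio that chose Cemip is part of this difference, so its rank is not a finding of its own.

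Cemip lies on the minus strand of chromosome 7. The 250 bases before its RefSeq start (GRCm38.p6, chr7:84086506-84086755, minus strand) are shown because Cemip is the member with the largest difference, with a TATAAA box and the matches to GGGCGG (here on the opposite strand, hence CCGCCC) in capitals.
Cemip: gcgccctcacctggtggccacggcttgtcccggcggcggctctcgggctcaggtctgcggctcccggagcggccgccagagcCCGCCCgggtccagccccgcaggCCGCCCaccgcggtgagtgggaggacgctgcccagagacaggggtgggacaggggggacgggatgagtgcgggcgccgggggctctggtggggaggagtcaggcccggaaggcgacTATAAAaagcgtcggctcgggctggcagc
Hyal2: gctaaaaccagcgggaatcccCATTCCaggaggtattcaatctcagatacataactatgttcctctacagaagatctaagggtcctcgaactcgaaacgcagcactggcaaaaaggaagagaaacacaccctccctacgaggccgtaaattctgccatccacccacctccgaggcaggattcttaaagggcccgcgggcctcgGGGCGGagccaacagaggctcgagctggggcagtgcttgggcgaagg
The second sequence is the same window of Hyal2 (chr9:107568913-107569162, plus strand), the degrading enzyme that differed the other way at 72 h, with its GGGCGG and, on the opposite strand, GGAATG in capitals. Windows were found for 5 of the 7 members.

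The Cemip window is 75.2% G and C, higher than 96.1% of 32851 mouse windows of this length, of which the median is 52.4%. The TATAAA starts 29 bases before the transcription start, and 12.4% of all windows hold these letters on either strand. Its 2 GGGCGG matches begin 168 and 145 bases before the start, and 32.7% of windows hold at least 1. The Hyal2 window has a G and C content of 55.6%, with GGGCGG 47 and GGAATG 229 bases before the start, the last a sequence bound by TEAD factors that 12.6% of windows hold. The AP-1 letters TGANTCA, CRE letters TGACGTCA, CCAAT, STAT letters TTCNNNGAA and E-box CACGTG, also searched on both strands, are in neither of these windows. Matches describe the sequence only.

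Of the other degrading members, Hyal2, which cuts long hyaluronan at the cell surface, was slightly higher in invading fibroblasts at 72 h. Its 72 h signals were 7.71, 7.88, 7.68 and 7.72 in invading fibroblasts, against 7.56, 7.51, 7.49 and 7.48 in non-invading fibroblasts. Every invading sample exceeded every non-invading one, by a small margin. Hyal2 had a log2 ratio of 0.24 (SE 0.07, 95% interval 0.09 to 0.39), or 1.18-fold, with an adjusted p of 0.0326 in limma.

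At 96 h Hyal2 had signals of 7.69, 7.66, 7.51, 7.36 and 7.84 in invading fibroblasts, against 7.61, 7.40, 7.37, 7.49 and 7.32 in non-invading fibroblasts. Here the fractions overlapped, the fourth invading sample lying below 4 of the 5 non-invading ones. The log2 ratio of 0.18 (95% interval -0.03 to 0.38) did not pass the test (adjusted p = 0.185, limma). It passed without that invading sample, replicate 4 (0.24, adjusted p = 0.0613), after quantile normalization was applied again (0.28, adjusted p = 0.03) and after each array was centred on its median (0.29, adjusted p = 0.0311).

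Hyal1, the lysosomal hyaluronidase, has no probe set of its own. Both of its probe sets are shared with the neighbouring gene Naa80, and 1 lists a curated transcript of Hyal1 while the other lists one of Naa80. The shared set with the Hyal1 transcript averaged 7.87 ± 0.15 in invading and 8.15 ± 0.18 in non-invading fibroblasts at 96 h (SD, n = 5 each), a log2 difference of -0.28 (adjusted p = 0.0554, limma). At 72 h it averaged 7.82 ± 0.06 in invading and 7.69 ± 0.13 in non-invading fibroblasts, a log2 difference of 0.13 (adjusted p = 0.283). The set with the Naa80 transcript was higher in invading fibroblasts at both times, with log2 ratios of 0.31 at 96 h (adjusted p = 0.0079) and 0.32 at 72 h (adjusted p = 0.0329). These values of Naa80 and Hyal1 together are not assigned to Hyal1.

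Among the synthases, Has2, the main hyaluronan synthase of many mesenchymal cells, had lower RNA in invading fibroblasts at 72 h. Has2 had a weak signal, with group means between the 34.6 and 47.4 percentiles of all genes. Its 72 h signals were 6.30, 5.58, 6.24 and 6.12 in invading fibroblasts, against 7.17, 6.85, 7.0 and 6.57 in non-invading fibroblasts. The fractions did not overlap, and the second invading sample was the lowest by a wide margin. The means of Has2 were 6.06 ± 0.33 in invading and 6.90 ± 0.25 in non-invading fibroblasts (SD, n = 4 each). The log2 ratio of -0.83 (SE 0.18, 95% interval -1.23 to -0.44) corresponds to 0.561 of the non-invading signal, with an adjusted p of 0.011 in limma. The difference passed the test under all alternatives, with adjusted p between 0.0023 and 0.0334.

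At 96 h the Has2 signals were 6.33, 6.06, 6.20, 5.71 and 5.84 in invading fibroblasts, against 6.84, 5.67, 6.23, 6.03 and 6.23 in non-invading fibroblasts. The fractions overlapped widely, and the non-invading samples held both the highest and the lowest value. Has2 had a log2 ratio of -0.17 (95% interval -0.59 to 0.25, adjusted p = 0.558, limma). This interval holds 0 as well as part of the 72 h interval.

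In invading fibroblasts the log2 difference of Has2 for 96 h against 72 h was -0.03 (95% interval -0.45 to 0.39, adjusted p = 0.93, limma). In non-invading fibroblasts it was lower at 96 h, 6.20 ± 0.42 (SD, n = 5), than at 72 h, 6.90 ± 0.25 (SD, n = 4). The log2 difference of Has2 there was -0.70 (SE 0.20, adjusted p = 0.0209, limma), or 0.618 of the 72 h signal, the 58th lowest of 19938 genes, although the first 96 h sample lay among those of 72 h. At 96 h the ratio of the fractions was higher by 0.66 than at 72 h (95% interval 0.07 to 1.26) on the log2 scale. Its adjusted p in limma was 0.53, so the fraction difference of Has2 is not shown to have changed with time.

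Has1 and Has3, the other synthases, did not pass the test in any comparison. Has1 ranged from 5.70 to 5.86 in invading and from 5.83 to 6.08 in non-invading fibroblasts at 96 h, and from 5.72 to 5.86 in invading and from 5.65 to 6.08 in non-invading fibroblasts at 72 h. Its log2 ratios were -0.10 at 96 h (95% interval -0.24 to 0.03, adjusted p = 0.255) and -0.10 at 72 h (adjusted p = 0.512), and at 96 h the ratio was positive (0.02) under both other scalings. Has3 ranged from 4.87 to 5.56 in invading and from 5.13 to 5.38 in non-invading fibroblasts at 96 h, and from 5.37 to 5.41 in invading and from 5.39 to 5.54 in non-invading fibroblasts at 72 h. The log2 ratios of Has3 were -0.02 at 96 h (adjusted p = 0.903) and -0.05 at 72 h (adjusted p = 0.599), and positive at both times under both other scalings (0.10 at 96 h and 0.02 to 0.03 at 72 h). In both fractions and at both times the mean signals of Has1 and Has3 were in the lower part of the array, between the 21.7 and 33.9 percentiles of all genes.

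Cd44, the hyaluronan receptor that ties the polymer to the cytoskeleton, showed no call between the fractions. At 72 h its signals were 8.73, 8.70, 8.48 and 8.47 in invading fibroblasts, against 9.03, 8.94, 8.73 and 8.70 in non-invading fibroblasts. The highest invading sample lay just above the lowest non-invading one, a log2 ratio of -0.25 (95% interval -0.48 to -0.03, adjusted p = 0.113, limma). It passed the threshold under 5 of 17 alternatives (adjusted p from 0.0538 to 0.096), among them 1 fit over all samples (0.0772) and leaving out the fourth non-invading sample (0.096).

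At 96 h the signals of Cd44 were 8.66, 8.75, 8.62, 8.71 and 8.40 in invading fibroblasts, against 8.48, 8.41, 8.56, 8.75 and 8.36 in non-invading fibroblasts. The fractions shared the same range, with a log2 ratio of 0.11 (adjusted p = 0.385), or 0.23 after centring on the median (adjusted p = 0.0529). Non-invading fibroblasts had less Cd44 RNA at 96 h, 8.51 ± 0.15 (SD, n = 5), than at 72 h, 8.85 ± 0.16 (SD, n = 4), a log2 difference of -0.34 (SE 0.10, adjusted p = 0.0198, limma) with overlapping samples. In invading fibroblasts the difference of Cd44 was 0.03 (adjusted p = 0.87). Between the times the ratio of the fractions differed by 0.36 on the log2 scale (95% interval 0.08 to 0.65, adjusted p = 0.444, limma).

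**Figure D2:**
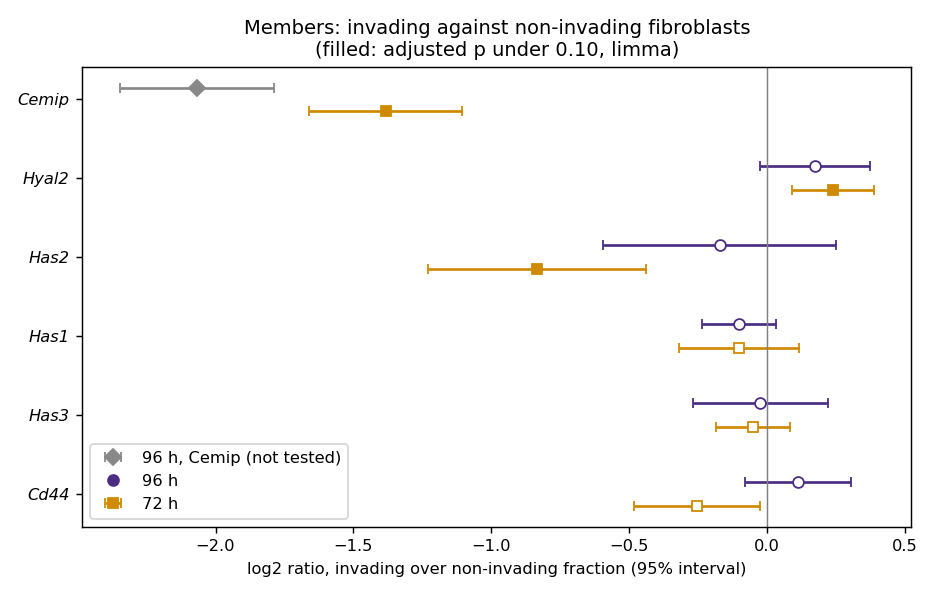
Log2 ratio of invading over non-invading fibroblasts (x axis) with its 95% interval for the 6 measured members (rows), 96 h above 72 h in each row, filled where the adjusted p in limma is under 0.10. Cemip at 96 h (-2.07, grey) chose the group and carries no test, and among the rest Cemip, Has2 and Hyal2 passed at 72 h and no member passed at 96 h.

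Over the members, 3 of 6 were called at 72 h, Hyal2 higher and Cemip and Has2 lower, against 26.5% of all genes called (13% higher and 13.5% lower). The fractions did not overlap for these 3 members at 72 h, and 24.8% of all genes had no overlap. At 96 h none of the 5 members other than Cemip was called in limma, where 31.4% of all genes were called. None had an unadjusted p under 0.05, against 13680 of 35556 probe sets. For 96 h against 72 h in invading fibroblasts, 0 of these 5 were called (34.8% of all genes were called). Again 0 had an unadjusted p under 0.05 in that contrast, against 12611 probe sets. Within non-invading fibroblasts 2 of the 5, Has2 and Cd44, were called for that contrast, both lower at 96 h (27.6% of all genes were called, 12.2% lower). The 96 h and 72 h samples of non-invading fibroblasts did not overlap for 1 of the 5, Has3, whose log2 difference of -0.18 did not pass (adjusted p = 0.211), and they did not overlap for 20% of all genes. For the change of the fraction ratio with time 0 of 5 were called by limma, against 0.015% of all genes called. An unadjusted p under 0.05 was found for 2 of the 5 (Has2 and Cd44) and for 3062 of all 35556 probe sets. Some alternatives added calls: without invading replicate 4 of 96 h, Has3 passed in invading fibroblasts (log2 difference -0.24, 96 h against 72 h, adjusted p = 0.0497), and without invading replicate 5 of 96 h so did Hyal2 (-0.20, adjusted p = 0.0817).

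The comparisons of the 2 fractions at 96 h and of 96 with 72 h share samples, so their values are not independent of each other. Some markers of other cells moved with the fractions. Krt8 was higher in invading fibroblasts (log2 ratio 0.32 at 96 h and 0.53 at 72 h), as was the macrophage lysosomal gene Cd68 at 96 h (0.56), while Msln, 1 of 3 mesothelial markers, was lower (-0.63 at 96 h and -0.71 at 72 h). The other mesothelial markers, Upk3b (0.01 at 96 h and 0.02 at 72 h) and Wt1 (-0.07 at 96 h and 0.06 at 72 h), were not called. Among the 3 smooth muscle markers Myh11 was higher at 96 h (0.18) and Acta2 lower at 72 h (-0.34, adjusted p = 0.066, limma). The mean of the 7 epithelial markers lay between 5.82 and 5.90 in invading and between 5.64 and 5.82 in non-invading samples at 96 h, and that of the 7 leukocyte markers between 5.59 and 5.76 in invading and between 5.39 and 5.59 in non-invading samples. Of the 7 markers in each list, 3 epithelial and 3 leukocyte ones were called higher at 96 h and 1 of each at 72 h. That is 42.9% of each list at 96 h and 14.3% at 72 h, against 31.4% and 26.5% of all genes called in either direction. Of the 10 fibroblast markers 4 were lower at 96 h (40% called), and 4 lower and 1 higher at 72 h (50% called), with Col3a1 at -0.35 (96 h) and -0.34 (72 h). The part of such shifts in the values of the members was not tested.

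The wider pathway was read from a list of 52 genes in 6 roles, of which 50 have a probe set with their symbol alone (Hyal1 does not). Of the 44 that are not members, 8 were higher and 4 lower in invading fibroblasts at 96 h (27.3% called, against 31.4% of all genes), and 7 were higher and 6 lower at 72 h (29.5%, against 26.5%). The median log2 ratio of all 50 was 0.05 at both times, against 0.02 at 96 h and 0.04 at 72 h over all genes. These counts depend on the scaling: with each array centred on its median, which moves all genes up by a median of 0.12 at 96 h, 30 of the 44 were higher and 0 lower at 96 h (68.2% called), where 53.7% of all genes were called and 85.2% of these were higher. With quantile normalization applied again 24 were higher and 3 lower at 96 h (61.4% called), where 51.1% of all genes were called and 75.5% of these were higher. At 72 h either of these scalings gave 14 higher and 5 lower, of which 73.7% were higher. Over all genes at 72 h, 73% of the calls were higher after centring (34.6% of genes called) and 68.4% after quantile normalization (37% called).

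In the degradation group, Hexa and Gusb, lysosomal exoglycosidases that trim sugars from the ends of hyaluronan fragments, were higher in invading fibroblasts at both times. Hexa, the alpha subunit of beta-hexosaminidase, averaged 12.42 ± 0.09 in invading and 11.74 ± 0.16 in non-invading fibroblasts at 96 h (SD, n = 5 each), a log2 ratio of 0.68 (adjusted p = 0.000184, limma). At 72 h its log2 ratio was 0.66 (adjusted p = 0.0022). Gusb, beta-glucuronidase, had log2 ratios of 0.39 at 96 h (adjusted p = 0.0045) and 0.35 at 72 h (adjusted p = 0.0328). For both genes the fractions did not overlap at either time, which held for 18.2% of all genes at 96 h and 24.8% at 72 h. Cemip2, a transmembrane relative of Cemip with a hyaluronidase role, did not pass the test, with log2 ratios of 0.16 at 96 h (adjusted p = 0.159) and -0.09 at 72 h (adjusted p = 0.61).

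**Figure D3:**
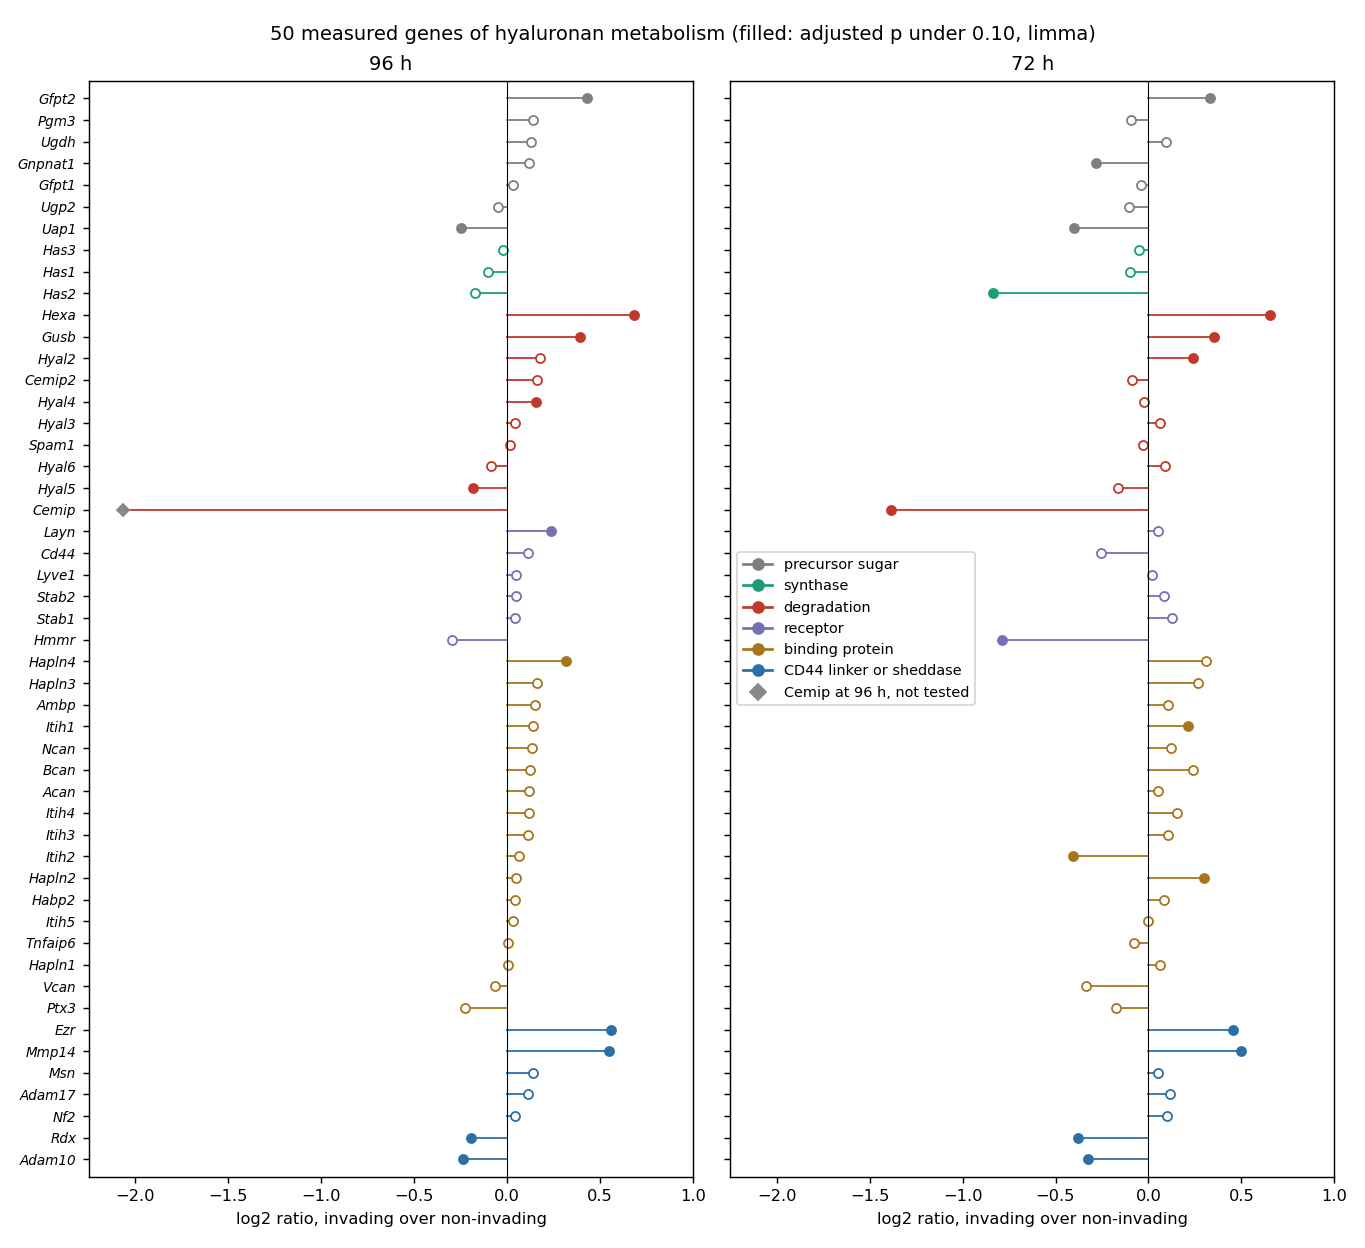
Log2 ratio of invading over non-invading fibroblasts (x axis) at 96 h (left) and 72 h (right) for the 50 measured genes of the hyaluronan list (rows, coloured by role and sorted within a role by the 96 h ratio), filled where the adjusted p in limma is under 0.10. Hexa and Gusb extend to the right and Cemip to the left at both times, and Cemip at 96 h (grey diamond) was not tested.

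Of the 7 enzymes that make the precursor UDP-sugars 1 was higher and 1 lower at 96 h (28.6% called, against 31.4% of all genes). At 72 h 1 was higher and 2 lower (42.9%, against 26.5% of all genes). Gfpt2, which directs glucose carbon into the hexosamine pathway, was higher in invading fibroblasts, with log2 ratios of 0.43 at 96 h (adjusted p = 0.0012) and 0.33 at 72 h (adjusted p = 0.0317). Uap1, which makes UDP-N-acetylglucosamine, was lower, at -0.25 at 96 h (adjusted p = 0.0197) and -0.40 at 72 h (adjusted p = 0.0038). With each array centred on its median the 96 h value of Uap1 was -0.13 and did not pass (adjusted p = 0.109). Over time 5 of the 7 enzymes were higher at 96 h than at 72 h in invading fibroblasts and 3 of 7 in non-invading fibroblasts, with none lower, where 34.8% of all genes in invading and 27.6% in non-invading fibroblasts were called in either direction. Among the 5 were Pgm3 (0.57), Gnpnat1 (0.55) and Gfpt1 (0.47), log2 differences in invading fibroblasts, and Pgm3 (0.34) and Gfpt1 (0.40) were also higher in non-invading fibroblasts, genes given here after their values were seen.

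Among receptors and binding proteins few passed. Called were 1 of 6 receptors at each time, and 1 of 17 binding proteins at 96 h and 3 of 17 at 72 h. Of all genes 31.4% were called at 96 h and 26.5% at 72 h. Hmmr, a hyaluronan-binding protein that also acts at the mitotic spindle, was lower in invading fibroblasts at 72 h (log2 ratio -0.79, adjusted p = 0.0027), and at 96 h had a ratio of -0.30 (adjusted p = 0.167), or -0.40 without the first non-invading sample (adjusted p = 0.0545). Itih2, a heavy chain that is transferred to hyaluronan, was lower at 72 h (-0.41, adjusted p = 0.0076) and had a log2 ratio of 0.06 at 96 h (adjusted p = 0.73). Its signal was weak, with group means between the 39.5 and 45.7 percentiles of all genes. Hapln4, a link protein that joins hyaluronan to proteoglycans, was higher at 96 h (0.32, adjusted p = 0.0064), with a ratio of 0.31 at 72 h (adjusted p = 0.136). Versican, Vcan, the large proteoglycan of fibroblast matrix, had a log2 ratio of -0.34 at 72 h that did not pass (adjusted p = 0.105).

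Proteins that link CD44 to actin or cut it from the surface moved in both directions, with 2 of 7 higher and 2 lower at each time (57.1% called, against 31.4% of all genes at 96 h and 26.5% at 72 h). Mmp14, a membrane protease that sheds CD44 and degrades collagen, had log2 ratios of 0.55 at 96 h (adjusted p = 0.00021) and 0.50 at 72 h (adjusted p = 0.0044). The linker Ezr was higher as well, at 0.56 (96 h, adjusted p = 0.0026) and 0.46 (72 h, adjusted p = 0.0306). Its relative Rdx was lower, at -0.20 (96 h, adjusted p = 0.0495) and -0.38 (72 h, adjusted p = 0.0163), and the sheddase Adam10 too, at -0.24 (96 h, adjusted p = 0.0091) and -0.33 (72 h, adjusted p = 0.029). The 96 h values of Rdx and Adam10 did not pass after centring on the median (-0.08 and -0.12), and that of Rdx did not without invading replicate 2 (-0.17, adjusted p = 0.108) or non-invading replicate 3 (-0.18, adjusted p = 0.105).

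The remaining list genes called between the fractions had smaller log2 ratios, and are named after their values were seen. At 96 h these were Hyal4 (0.16), Hyal5 (-0.19) and the hyaluronan receptor Layn (0.24). At 72 h they were Gnpnat1 (-0.28), Hapln2 (0.30) and Itih1 (0.21). The 72 h mean of Itih1 lay at the 31.4 percentile of all genes in invading and 28.7 in non-invading fibroblasts. That of Hapln2 lay at 45.4 and 41.9, and that of Gnpnat1 at 68.6 and 72. Hyal4 and Hyal5 had very weak signals. At 96 h the mean of Hyal4 lay at the 11.2 percentile of all genes in invading and 8.52 in non-invading fibroblasts. That of Hyal5 lay at 4.71 and 7.18, and that of Layn at 94.3 and 92.6. Signals this low do not show that Hyal4 or Hyal5 is expressed. For the change of the ratio with time 0 of the 44 genes were called in limma, against 0.015% of all genes. An unadjusted p under 0.05 was found for 7 of the 44 genes and for 3062 of all 35556 probe sets.

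The genes with the pattern nearest to that of Cemip over the 18 samples were sought by the root mean square difference of log2 signals, each gene first centred on its own mean. They were Gm10825 (0.29), B930095G15Rik (0.30), Gm7265 (0.32), Airn (0.33) and Hmcn1 (0.34), where the median over 19937 genes was 0.948 and the SD of Cemip itself 0.95. All but Hmcn1, a matrix protein of the hemicentin family, are predicted, uncharacterised or noncoding by name. Hmcn1 ranged from 8.46 to 9.71 in invading and from 10.13 to 10.46 in non-invading fibroblasts at 96 h, and from 8.24 to 8.98 in invading and from 9.84 to 10.26 in non-invading fibroblasts at 72 h. The log2 ratios of the 5 genes lay between -1.90 (B930095G15Rik) and -1.43 (Gm7265) at 96 h, and between -1.73 (B930095G15Rik) and -1.14 (Airn) at 72 h. The 5 genes were picked for their likeness to Cemip over these same samples, so low ratios follow from the choice. No member of the hyaluronan list was among the 5 genes.

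For Has2 the nearest genes were Ormdl2 (0.27), Map11 (0.28), Pigm (0.29), Prune2 (0.29) and Scd2 (0.30), against a median of 0.478 and an SD of Has2 of 0.457. Ormdl2, a regulator of sphingolipid synthesis, had log2 ratios of -0.26 at 96 h and -0.64 at 72 h. Scd2, a fatty acid desaturase, had -0.44 at 96 h and -0.53 at 72 h. These genes were likewise picked for their likeness to Has2 over the same samples.

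**Figure D4:**
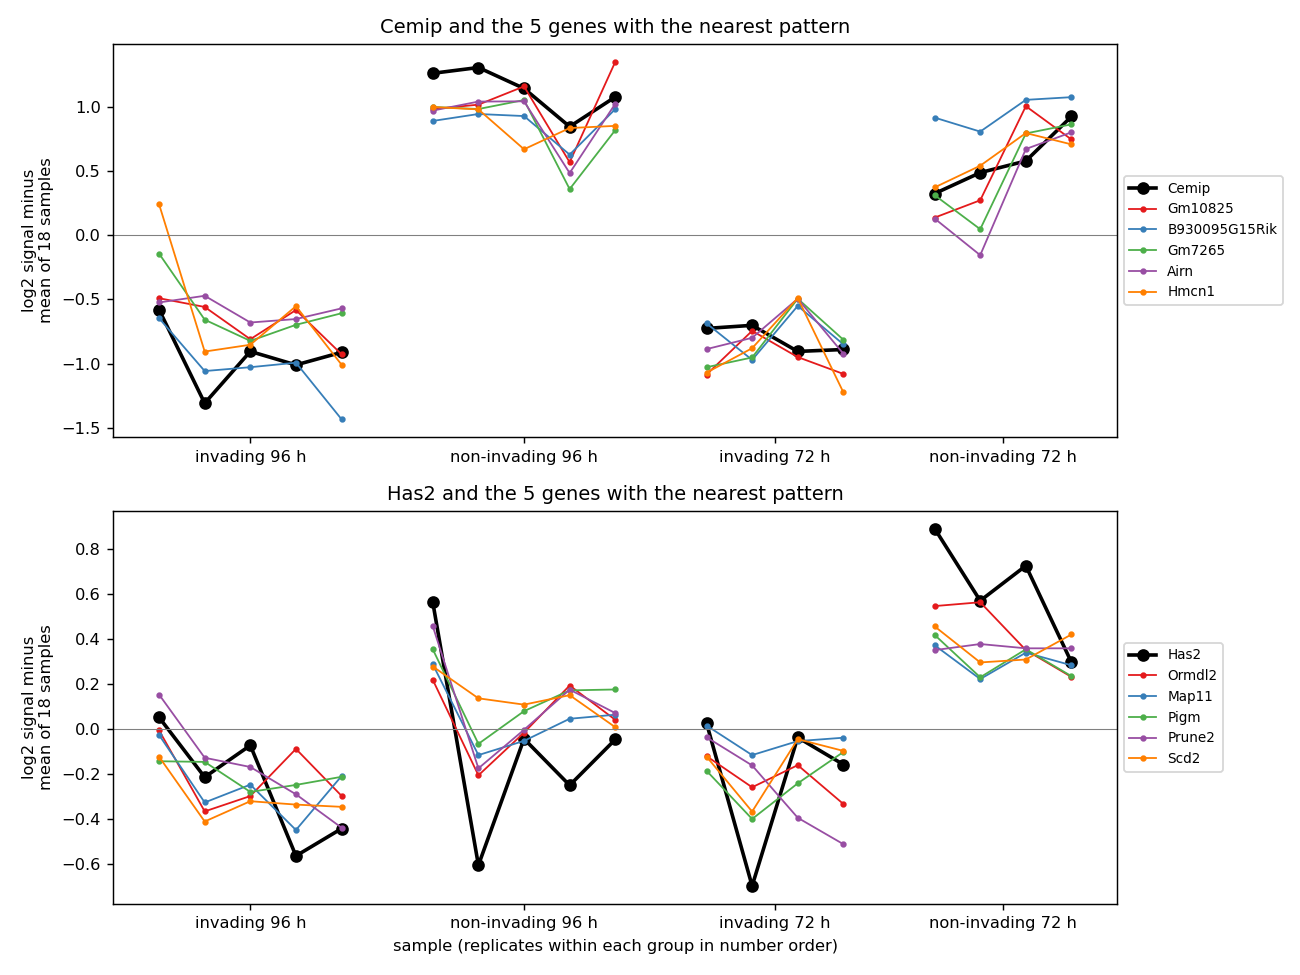
Log2 signal minus the gene's mean over 18 samples (y axis) for Cemip (top, black) and Has2 (bottom, black) with their 5 nearest genes (colours), over samples grouped by fraction and time (x axis); lines only join the points of a gene within a group. Around Cemip all invading samples but the first of Hmcn1 at 96 h are below 0, and around Has2 the non-invading samples of 72 h are the highest group. The coloured genes were picked for their likeness over these samples, so shared patterns follow from the choice.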

How the data were processed

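RNA of 18 samples was measured on 1-colour arrays, whose number limits how precise the values are. The deposited log2 signals had been background corrected, normalized between arrays and brought to probe set level with RMA in Affymetrix Expression Console 1.2 by the authors, according to the submitters' notes, and were used as they are. Of 35556 probe sets, 21789 carry 1 symbol, 1621 several and 12146 none in the array annotation. Groups came from the labels. The fractions were compared within each time, in separate fits, and the times within each fraction and the change of the ratio in 1 fit over all samples, with limma 3.58.1 in R 4.3.3 and no covariates. The code was tested on simulated data. The members and the gene lists were chosen with earlier results of these data known. All members, the list genes called with a log2 ratio of at least 0.3 in size at either time, and the 5 genes nearest to Cemip and to Has2 are named. Alternatives were a second quantile normalization, each array centred on its median, only probe sets that reached a linear signal of 100 in some sample, only probe sets with 1 symbol, the mean of all probe sets of a gene, an intensity trend with robust estimation, an adjusted p under 0.05, the replicate number as a block, 1 fit over all 18 samples and leaving out each sample. Promoter sequences are from RefSeq (GRCm38.p6). The aligned build of the probe annotation is not given in the sources used here, so no probe position is printed.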

Additional observations from a re-analysis of the deposited data

Results flagged for a closer look

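In Has1, invading replicate 5 at 96 h stood apart from its group, with a log2 signal of 5.699 where the next sample had 5.817 and the highest 5.856. It was the 1 such sample among 24 groups of 4 or 5 samples examined over the 6 measured members, and chance alone flags about 1 in 20 groups. The gap is small on the log2 scale, and Has1 was not called in any comparison.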

How the results depend on the processing

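Over the members, leaving out the comparisons of Cemip that use 96 h samples, 476 of the values under an alternative kept their direction and side of the threshold or did not pass either way, 11 passed where the reported value did not, and none that passed was lost or reversed. For the other named list genes these numbers were 1032, 13 and 11 lost, none reversed. Of the 50 measured list genes 13 were called at 96 h, 29 after quantile normalization was applied again (25 higher, 4 lower) and 33 after centring on the median (32 higher, 1 lower), against 8 higher and 5 lower as deposited. Each of these counts holds Cemip, which was not tested at 96 h, among the lower genes, and the 44 genes that are not members gave 8 higher and 4 lower as deposited, 24 and 3 after quantile normalization and 30 and 0 after centring. At 72 h the 8 higher and 8 lower became 15 higher and 7 lower under both. For 96 h against 72 h in non-invading fibroblasts 8 higher and 6 lower became 6 and 8 after quantile normalization. Over all genes the share of calls that were higher moved likewise, from 55.9% to 43% in that comparison (27.6% and 30.6% of genes called). At 96 h this share went from 53.1% to 75.5% after quantile normalization and 85.2% after centring, and at 72 h from 49% to 68.4% and 73%. Without 1 sample the list counts ranged from 11 to 15 at 96 h, 13 to 17 at 72 h, 13 to 18 and 10 to 14 for the times in invading and non-invading fibroblasts, and stayed at 0 for the change of the ratio, and the log2 ratio of Cemip at 72 h stayed between -1.47 and -1.27. With all samples, 31.4%, 26.5%, 34.8%, 27.6% and 0.015% of all genes were called in these comparisons, in the same order. Samples with the same replicate number correlated at 0.05 to 0.17 at 96 h (over 0.1 in 2 of 5 pairs) and at -0.07 to 0.09 at 72 h. The best correlation was with the own number in 4 of 5 pairs at 96 h and in 1 of 4 at 72 h. The study used paired t-tests for its array values of growth factor receptors. Whether the numbers mark pairs is therefore not settled, and the reported fits treat the samples as independent. With the replicate number as a block the list counts were 12 at 96 h, 15 at 72 h, 16 and 14 for the times and 0 for the change of the ratio, against 13, 16, 16, 14 and 0 without it, and Cd44 passed at 72 h (adjusted p = 0.0538, limma).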
